A study of Caenorhabditis elegans with 10 samples.

Results

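The genes described here are 138 protein-coding genes of Caenorhabditis elegans that are known by a clone name alone and whose ribosome footprints appeared late in larval life. A clone name such as Y51H7C.13 gives only the cosmid and number of a gene model. Each of the 138 stood under 1 CPM (a gene's count over the library total, times 1000000) in the 6 libraries from 18 h to 28 h and reached at least 20 CPM at 34 h or 36 h. They are 138 of the 8018 clone-named genes among 20182 in the count table. These levels chose the genes and are given as a description. The libraries hold footprints, the mRNA fragments shielded by a translating ribosome, from whole worms of N2, the standard wild-type strain. Hatched first-stage larvae were fed without interruption and harvested at 10 times, 2 h apart, with 1 library each; the earliest is 18 h after plating and the latest 36 h. All libraries share the strain and the feeding, and neither a treatment nor a mutant is part of the series. No time was repeated, so no difference between times was tested, and the intervals given with single values cover counting error only. In whole worms, fewer cells of a type and less RNA per cell cannot be told apart. With footprints alone, neither can mRNA level and translation.

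The last larval stage of the hermaphrodite is the time when its germ line makes sperm before it turns to oocytes. Sperm genes are transcribed and translated before the meiotic divisions, since a finished sperm makes no protein. They include the major sperm proteins, which drive the crawling of the nematode sperm cell, and many kinases and phosphatases. Genes with sperm-enriched expression are known to be scarce on the X chromosome, which is silenced in the male-type germ line. At the end of the same stage the epidermis makes the adult cuticle, the uterus and spermatheca mature, and the intestine starts to make yolk. None of the 138 genes has a function named in the annotation used here.

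Library totals ran from 16723638 to 33696423 counts, so 1 CPM stood for 16.7 to 33.7 counts. A count of 0 allows a level of up to 0.0890 CPM in the deepest library and 0.179 CPM in the shallowest, taking 3 counts as the limit. Of the 138 gene spans, 34 overlap another protein-coding gene in the annotation, and no source read for this work states whether counting used strand. The gene C09B9.4 is clone-named in the Ensembl annotation and is called spe-55 in RefSeq.

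Together the 138 genes held 8101 CPM at 36 h, or 0.810% of all footprints (exact binomial interval 0.806% to 0.814%). Their summed level was 6.49, 7.04, 7.49 and 7.35 CPM at 18 h, 20 h, 22 h and 24 h. At 26 h, 28 h, 30 h, 32 h and 34 h it was 12.2, 42.0, 272, 1369 and 4416 CPM. The first 4 libraries were flat, and each later library was higher than the one before it, by 1.66-fold, 3.44-fold, 6.50-fold, 5.02-fold, 3.23-fold and 1.83-fold in turn. Per library total, the steepest of these steps led into the 30 h library. The summed level of the set was therefore already higher at 28 h than in the 5 earlier libraries, inside the limit of 1 CPM per gene. Of the 138 genes, 116 had a higher level at 28 h than in any of those 5 libraries. The levels through 28 h entered the choice of genes, and the same was not counted over all genes. At 28 h, 130 genes had at least 1 count, and 7 had none in any library through 28 h. A start after 30 h, as the working name of the set has it, depends on the level asked for: 40 genes (29.0%) first reached 1 CPM after 30 h, and 83 (60.1%) first reached 2 CPM after it.

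**Figure D1:**
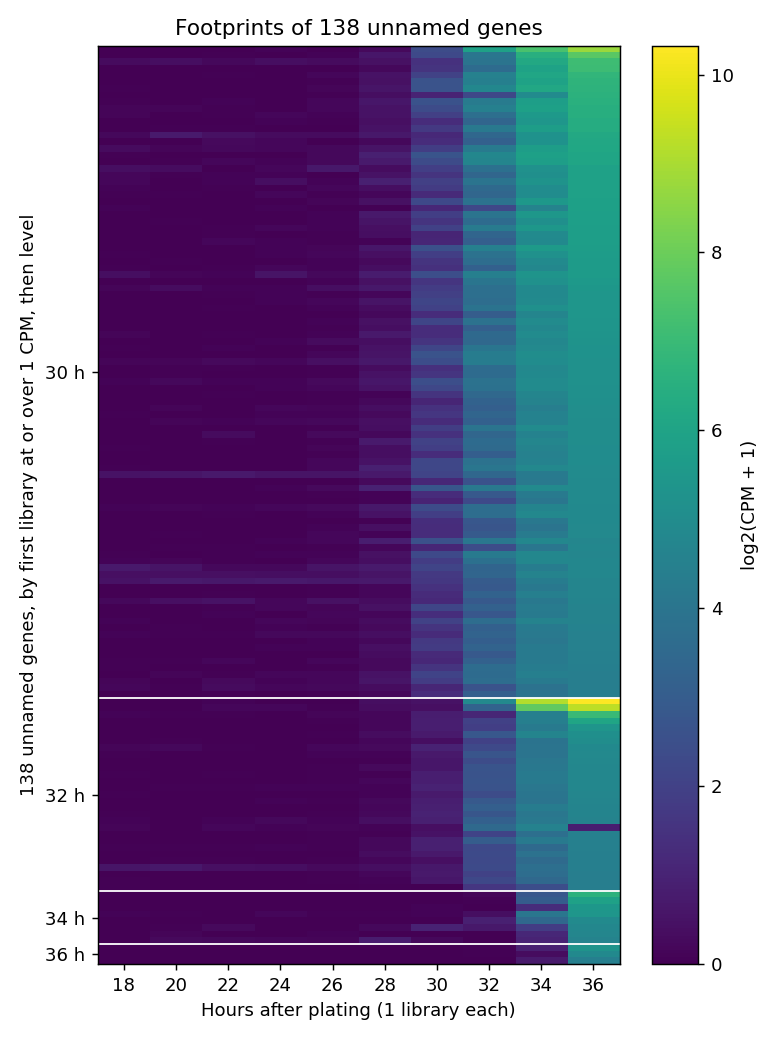
Footprint level of each of the 138 unnamed genes (rows) in each of the 10 libraries (columns, hours after plating), as log2(CPM + 1), grouped by the first library at or over 1 CPM and ordered by level within a group. Of the rows, 98 reach 1 CPM at 30 h, 29 at 32 h, 8 at 34 h and 3 at 36 h, and 1 row is dark again at 36 h.

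The genes differed in the first library at or over 1 CPM. This level was reached by 98 genes (71.0%) at 30 h, by 29 at 32 h, by 8 at 34 h and by 3 at 36 h. With 2 CPM as the level the same counts were 55, 71, 6 and 6. Median levels at 30 h, 32 h, 34 h and 36 h were 1.62, 8.79, 23.2 and 32.4 CPM. At 36 h the levels ran from 0.809 to 1279 CPM. Of the 138 genes, 123 were higher in each library than in the one before from 28 h to 36 h. So were 71 of the 84 genes with a class name, such as msp-64, that meet the same levels. This was not counted over all genes. The highest level of all 10 libraries lay at 36 h for 134 genes and at 34 h for 4. A highest level after 28 h follows from the choice of genes, and these counts were not made over all genes either.

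The steps between neighbouring libraries were counted when they reached 2-fold, with 0.5 counts added, and were set beside the same steps over 5544 genes of the table with at least 20 CPM at 34 h or 36 h, the 138 included. From 28 h to 30 h, 125 of the 138 genes were at least 2-fold higher, against 9.13% of the 5544. From 30 h to 32 h, 132 were, against 10.8%, and from 32 h to 34 h, 122 were, against 12.0%. A gene under 1 CPM at 28 h and at 20 CPM by 36 h has to climb between them, so these 3 counts follow from the choice of genes. At least 2-fold lower in the same 3 steps were 2, 2 and 0 of the 138 genes, against 7.85%, 6.96% and 3.54% of the 5544. The choice of genes also sets a minimum for the whole climb after 28 h, since the levels at 28 h, 34 h and 36 h entered it. It did not fix how the climb was divided among the steps, and their median sizes are a description. The median step was 2.55 log2 into 30 h, 2.25 log2 into 32 h, 1.47 log2 into 34 h and 0.59 log2 into 36 h. Under trimmed-mean (TMM) scaling, which shifts all genes by -0.22, 0.15, 0.20 and 0.05 log2 in these steps, the medians were 2.33, 2.40, 1.66 and 0.64 log2. The order of the steps into 30 h and 32 h thus turned with the scaling, and the later 2 steps were smaller under both.

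Y51H7C.13 (WBGene00021791, chromosome II) was the most abundant gene of the set. It stood between 0 and 0.301 CPM from 18 h to 28 h and had 0.406, 27.7, 559.5 and 1279 CPM at 30 h, 32 h, 34 h and 36 h. Its neighbour in gene order, Y51H7C.1 (WBGene00021779), was second, between 0 and 0.258 CPM through 28 h and then at 0.348, 8.38, 222 and 625 CPM. Both were late among the 138 genes, with 32 h levels at 2.17% and 1.34% of their own 36 h levels, against a median of 23.9% over the set. Together they held 23.5% of the summed level of the set at 36 h. The next gene in that order, H17B01.2 (WBGene00000646), was later still: it had no count through 30 h and stood at 0.0453, 6.95 and 59.4 CPM at 32 h, 34 h and 36 h. The treatment of reads that fit several places is not stated, so levels of neighbouring genes that are similar copies are uncertain.

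D1086.10 (WBGene00044080, chromosome V) was next in abundance and took an earlier course. It stood between 0 and 0.215 CPM through 28 h and at 4.29, 59.7, 161 and 437 CPM from 30 h to 36 h. At 32 h this was the highest level in the set. F17E9.5 (WBGene00017542, chromosome IV) followed the same order of libraries, between 0 and 0.558 CPM through 28 h and then at 3.83, 15.6, 90.9 and 206 CPM. Per kilobase of coding sequence, the 36 h levels were 1085 CPM for Y51H7C.13, 750.2 CPM for D1086.10, 465 CPM for Y51H7C.1 and 423 CPM for F17E9.5. The median over the set was 43.4 CPM per kilobase. D1086.10 thus moved ahead of Y51H7C.1 once length was taken into account.

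Levels at 36 h of the other genes among the 10 most abundant lay between 102 and 139 CPM. T16A9.5 (WBGene00011795, chromosome V) had 1.80, 14.7, 74.1 and 139 CPM from 30 h to 36 h. It was never at 0: its 6 earlier libraries held 0.166 to 0.386 CPM. Y69E1A.1 (WBGene00013473, chromosome IV) had 1.91, 11.3, 61.2 and 133 CPM in the 4 late libraries and no count before 28 h. T27E7.1 (WBGene00012087, chromosome IV) had 3.07, 22.3, 68.3 and 109.7 CPM at 30 h to 36 h, and F53B6.4 (WBGene00009959, chromosome I) had 5.28, 21.2, 61.5 and 104 CPM. Y43F8A.2 (WBGene00012809, chromosome V) stood at 5.16, 26.4, 71.2 and 102 CPM. C14F11.4 (WBGene00015780) was the only one of the 10 on the X chromosome and the latest of these 6, with 0.754, 1.13, 21.2 and 126 CPM. The 10 genes held 40.2% of the summed level of the set at 36 h, against 32.3% at 34 h.

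**Figure D2:**
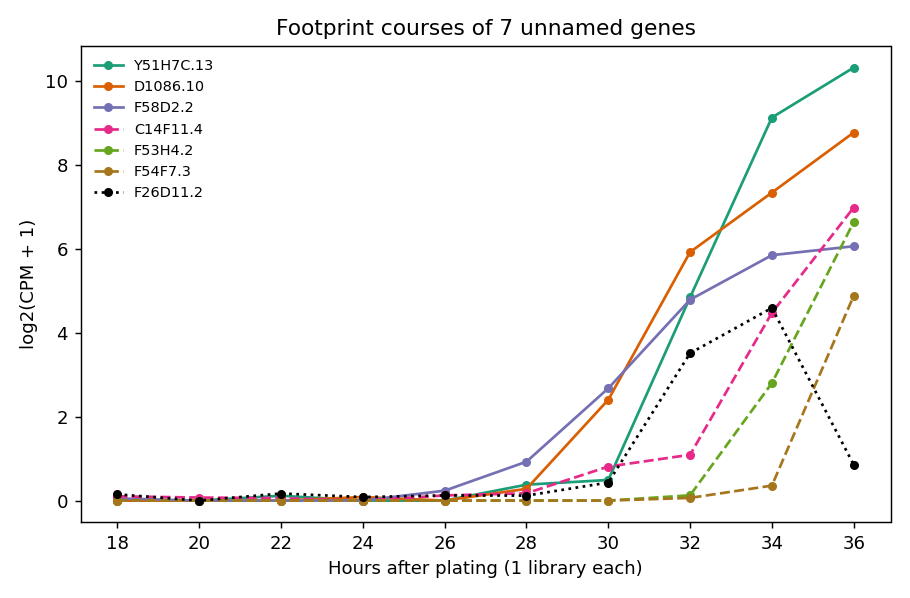
Footprint level of 7 unnamed genes in the 10 libraries, as log2(CPM + 1) against hours after plating, with 1 point per library. F58D2.2 and D1086.10 leave the floor at 28 h to 30 h, C14F11.4, F53H4.2 and F54F7.3 (dashed, all on the X chromosome) do so later, and F26D11.2 (dotted) is near the floor again at 36 h, at 0.809 CPM, against 23.1 CPM at 34 h.

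Of the 5 genes with the highest levels at 30 h, F53B6.4 and Y43F8A.2 were also among the 10 most abundant, and the other 3 were not. ZK418.2 (WBGene00022732, chromosome III) was highest at 30 h with 5.74 CPM, after 0.945 CPM at 28 h, and then stood at 16.8, 29.7 and 30.1 CPM. F58D2.2 (WBGene00010241, chromosome IV) had 5.39, 26.6, 56.7 and 65.9 CPM from 30 h to 36 h, and T25B9.6 (WBGene00012012, chromosome IV) had 5.16, 19.4, 32.5 and 37.2 CPM. C06A8.6 (WBGene00015516, chromosome II) was among the 5 highest at 32 h and had 4.12, 24.8, 54.4 and 65.4 CPM. These 4 genes gained little in the last step. F58D2.2 overlaps F58D2.5 and C06A8.6 overlaps mthf-1 in the annotation. Across the 138 genes, the order of levels at 36 h was close to that at 34 h (Spearman's rho 0.75) and less so to that at 30 h (0.31), as a description over genes that share libraries and lengths.

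The step from 34 h to 36 h compares 2 libraries that both entered the choice of genes, so its counts and ratios are a description. At 36 h, 27 of the 138 genes (19.6%) were at least 2-fold higher than at 34 h, against 6.67% of the 5544 genes with at least 20 CPM in either library. At least 2-fold lower was 1 gene, against 5.77% of the 5544. The median was 0.59 log2, against -0.06 log2 over the 5544. For 127 genes the counting interval of the ratio lay above 1, for 1 gene below 1, and for 10 genes it held 1. The count of 27 becomes 69 at a minimum of 1.5-fold and 11 at 4-fold. Neither the intervals nor these other minimum folds were counted over the 5544, so no background share stands beside them.

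The gene that stood lower at 36 h was F26D11.2 (WBGene00017819, chromosome V). It had at most 0.124 CPM in any library through 28 h, and then 0.348, 10.4, 23.1 and 0.809 CPM from 30 h to 36 h. These are 6, 230, 659 and 16 counts. Its level at 36 h was 28.6-fold lower than at 34 h (counting interval 17.5 to 50.3). A single library sets this difference. F26D11.2 is also the only gene of the set that reached 20 CPM at 34 h and not at 36 h. The next smallest ratio was close to 1: C35E7.10 (WBGene00016462) had 25.6 CPM at 36 h, against 26.5 CPM at 34 h. Of F42G4.2 (WBGene00009641), F40G12.10 (WBGene00009605) and F36A2.12 (WBGene00009459), the log2 ratios were -0.05, -0.04 and 0.01, and all 3 counting intervals held 1.

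At the other end stood genes seen almost only in the last library. F54F7.3 (WBGene00010065, chromosome X) had no count through 30 h, 1 count at 32 h, 8 at 34 h and 563 at 36 h. Its level was 28.5 CPM at 36 h, against 0.281 CPM at 34 h, 101-fold higher (counting interval 51.1 to 236). Y45F10C.4 (WBGene00012880, chromosome IV) also had no count through 30 h. Its 36 h level of 37.99 CPM, against 0.877 CPM at 34 h, was 43.3-fold higher (29.1 to 67.3). C44B7.5 (WBGene00016627, chromosome II) had no count through 32 h. Its 36 h level of 20.99 CPM, against 0.667 CPM at 34 h, was 31.5-fold higher (19.9 to 52.8). C35B1.4 (WBGene00016434, chromosome IV), a gene with a single coding exon, had 42.7 CPM at 36 h, against 1.47 CPM at 34 h, 29.0-fold higher (21.2 to 40.5). R12E2.6 (WBGene00020032, chromosome I) had 23.3 CPM at 36 h, against 1.02 CPM at 34 h, 22.9-fold higher (15.7 to 34.6). It encodes 74 residues, the shortest protein of the set, and unlike the other 4 it had a small number of early counts, with 0.730 CPM at 28 h. Without the 36 h library, none of these 5 genes would belong to the set.

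**Figure D3:**
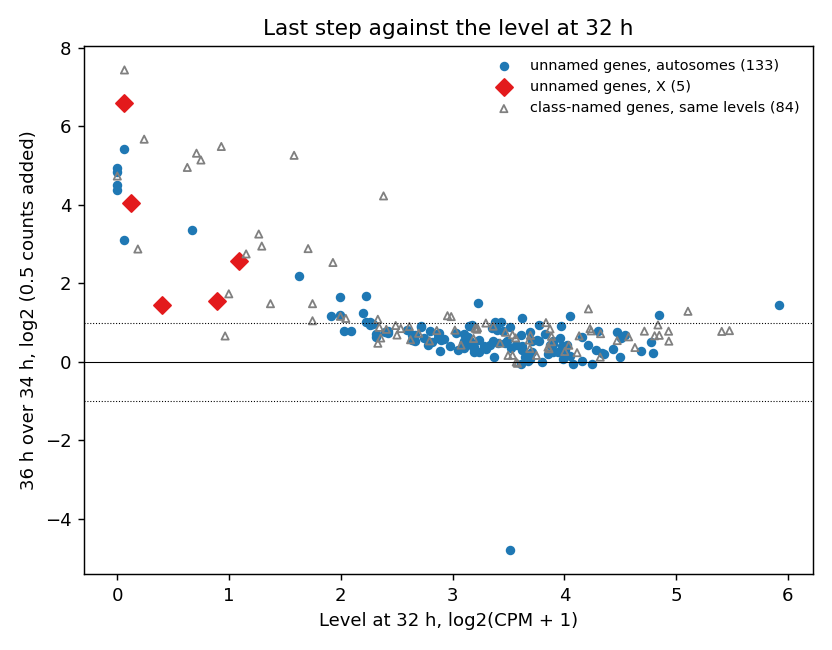
The ratio of 36 h over 34 h (log2, 0.5 counts added) against the level at 32 h, as log2(CPM + 1), for the 138 unnamed genes and for 84 class-named genes that meet the same levels. Dotted lines mark 2-fold. The 5 X-linked genes lie at the left, with little at 32 h, and 1 autosomal gene, F26D11.2, lies at -4.79.

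The genes were also divided by the share of its 36 h level that a gene had at 32 h. This cut was chosen after the values had been seen. At 32 h, 16 genes stood under 5% of their 36 h level, with K06A5.2 (WBGene00019430) at 4.52% just inside and F36A2.10 (WBGene00009457) at 6.30% just outside. All 16 were at least 2-fold higher at 36 h than at 34 h, with a median of 9.40-fold, and they held 2630 CPM at 36 h. Of that sum, Y51H7C.13 and Y51H7C.1 gave 1279 and 625 CPM, and their ratios of 2.29 and 2.82 lay well under the median. Of the other 122, 11 were at least 2-fold higher, up to 4.54-fold, the median was 1.45-fold, and they held 5471 CPM at 36 h. Both the share and the ratio contain the 36 h level, so this separation is partly built in. Median levels of the 16 were 0.0580, 0.204, 6.46 and 42.5 CPM from 30 h to 36 h. Those of the 122 were 1.91, 9.49, 24.0 and 32.1 CPM.

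Chromosomes differed between the 2 courses. On the X chromosome lay 5 of the 138 genes (3.62%), against 277 of the 2148 clone-named genes with at least 20 CPM in some library, the 138 included (12.9%). All 5 were among the 16 late genes, and 0 of the other 122 genes lay on X. None of the 98 genes that had reached 1 CPM at 30 h was X-linked. After C14F11.4, the most abundant of the 5 were F53H4.2 (WBGene00010007) and C36E6.8 (WBGene00044683). F53H4.2 had no count through 30 h and then 0.0906, 5.97 and 98.7 CPM, and it overlaps F53H4.6 in the annotation. C36E6.8 had at most 0.120 CPM through 28 h and then 0.0580, 0.317, 15.4 and 42.4 CPM from 30 h to 36 h. The remaining pair were F54F7.3, described above, and C53B7.2 (WBGene00016893), which had no count through 30 h and then 0.861, 10.3 and 30.1 CPM. Chromosome IV held 39 of the 138 genes (28.3%), against 17.1% of the 2148. Chromosome I held 31 (22.5%, against 16.1%) and chromosome II held 30 (21.7%, against 18.99%). Chromosomes III and V held 14 and 19 (10.1% and 13.8%), against 16.3% and 18.5%. No test was made of these shares.

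**Figure D4:**
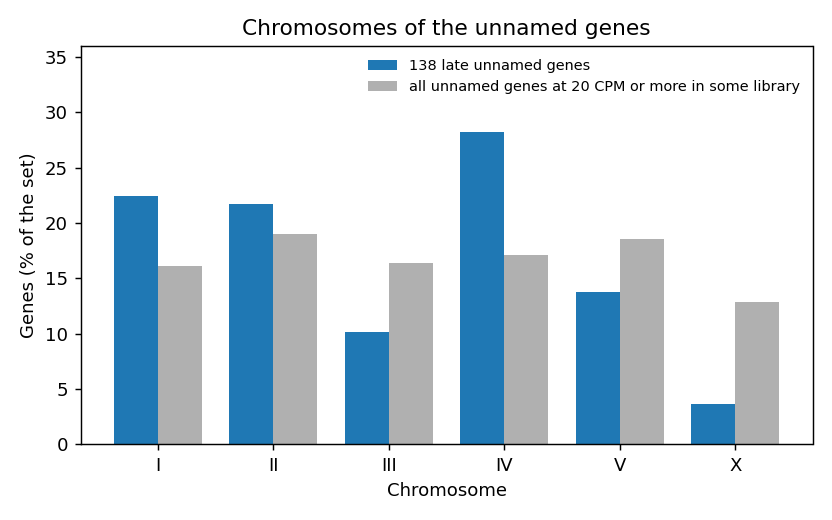
Share of genes (% of each set) on each chromosome for the 138 late unnamed genes (blue, left) and for the 2148 unnamed genes with at least 20 CPM in some library (grey, right). The blue bar is 28.3% for chromosome IV and 3.62% for X, against 17.1% and 12.9%.

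The 138 genes encode proteins with a median of 283 residues, against 340 over the 2148 clone-named genes with at least 20 CPM and 271 over all clone-named genes. The longest has 1408 residues. The median gene has 4 coding exons, against 5 in both comparison sets. A single coding exon was found in 5 genes (3.62%), against 1.54% of the 2148 and 3.59% of all clone-named genes. In the class-named genes with the same levels, 30 of 84 (35.7%) have a single coding exon.

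Some of the genes lie next to each other. In the order of protein-coding genes along a chromosome, 16 of the 138 (11.6%) adjoin another gene that meets the same levels, class-named genes included, against 2.70% of the 2148. The longest such run of unnamed genes is Y51H7C.13, Y51H7C.1 and H17B01.2 on chromosome II. F36A2.14 and F36A2.12 adjoin on chromosome I, and C27D8.2 and C27D8.1 on chromosome IV. C05C12.5 and F54D1.1, also on chromosome IV, adjoin on opposite strands. ZK1248.5 adjoins msp-64, ZK354.2 adjoins msp-59 and T14G10.8 adjoins msp-38, which all encode major sperm proteins. T27A3.5 adjoins spch-3, a sperm chromatin gene, and C08F11.10 adjoins ule-4, a gene of the uterine lumen. K03H1.12 on chromosome III adjoins gln-2, a glutamine synthetase gene. D1054.10 adjoins ule-3, and their courses differed: D1054.10 had 2.08, 4.42 and 20.1 CPM from 32 h to 36 h, and ule-3 had 0.0453, 0.105 and 21.1 CPM.

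A set of 84 class-named genes meets the same levels and shows what kinds of named gene share them. They include 17 msp genes, 5 ssp genes (sperm-specific proteins), 4 nspd genes (nematode-specific peptides), 4 ttbk genes (tau-tubulin kinase-like), 9 col genes (cuticle collagens), 3 ule genes, 2 perm genes (eggshell permeability barrier) and 2 vit genes (yolk). At 30 h, 98 of the 138 unnamed genes (71.0%) and 47 of the 84 class-named genes (56.0%) had reached 1 CPM. The late course held 16 of the 138 unnamed genes and 18 of the 84 class-named ones. Those 18 were the 9 col, 3 ule, 2 perm and 2 ttr genes with vit-6 and gipc-2, and 6 of the 18 lie on X. No msp, ssp, nspd or ttbk gene was among them. Reads of msp genes are hard to place, since the family holds near-identical copies.

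The named sperm genes gave a range for comparison. Of 92 genes in a list of sperm structure and function, 34 met the same levels. At 32 h these 34 stood at 6.24% to 54.7% of their 36 h level, with ratios of 36 h over 34 h from 1.12 to 2.79. Of the 138 unnamed genes, 107 (77.5%) lay inside both ranges. So did 26 of the 50 class-named genes that meet the same levels and are not in the list (52.0%), the yolk gene vit-2 among them. These 50 are not a set without sperm genes. They hold the sperm chromatin genes spch-3 and spch-2, and spch-2 lay inside both ranges, at 9.66% and 1.90. They also hold the 3 ssq genes (sperm-specific family), all inside both ranges, at 14.7% to 20.9% and 1.60 to 1.92. How many of the 26 are sperm genes was not counted, so 52.0% is not a share for genes outside sperm. Inside both ranges of the 2 yolk genes lay 6 of the 138, and inside those of the 2 eggshell genes or of the 1 adult cuticle gene lay 0. A range from 34 genes is wide and that from 1 gene is a point, so these counts cannot be set against the 107. On the share at 32 h alone, 115 lay inside the sperm range, 16 below and 7 above. The most abundant of the list at 36 h, msp-64 (WBGene00003457), had 3.42, 29.5, 132 and 227 CPM from 30 h to 36 h. The sperm phosphatase gene gsp-4 had 5.28, 22.8, 56.7 and 88.3 CPM, close in order and size to F53B6.4. The casein kinase gene spe-6 had 3.65, 12.5, 20.3 and 22.8 CPM, an early course like that of ZK418.2. Lying inside these ranges describes a course and names no cell type for any of the 138 genes.

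The lists of cell type markers moved with the set to different degrees. The summed level of the 92 sperm genes was between 52.999 and 83.0 CPM through 28 h and then 223, 826, 2397 and 3647 CPM from 30 h to 36 h. Of these 92 genes, 6 had no count in any library. The 8 regulators of sperm fate together stood at 152, 125, 86.3 and 65.8 CPM in the 4 late libraries, after 88.4 to 143 CPM. This sum hides members with opposite courses. The regulator spe-44, which is also in the sperm list, had 0.237, 18.7 and 9.81 CPM at 26 h, 34 h and 36 h. By contrast, fog-1 had 24.5 CPM at 26 h and 1.47 CPM at 36 h. The 13 germline genes, among them the P granule helicase gene glh-1, stood at 377 to 897 CPM through 28 h and at 1267, 1258, 1417 and 1589.9 CPM afterwards. The 6 yolk genes had at most 1.78 CPM through 28 h and then 7.305, 119, 240.2 and 539 CPM. The 16 oocyte and eggshell genes together had 101 to 618 CPM through 28 h and then 385, 109, 159 and 681 CPM. One of them, pqn-74, had 465 CPM at 28 h, and 254, 11.1, 7.58 and 192 CPM from 30 h to 36 h. Without pqn-74 the list stood at 90.1 to 153 CPM through 28 h and then at 131, 97.6, 151 and 489 CPM. In the list perm-4 and perm-2 met the same levels, with 195 and 97.2 CPM at 36 h, and the 36 h levels of the other 14 ran from 0.152 to 192 CPM. The 10 adult cuticle genes had 9.11 to 193 CPM through 28 h and then 22.7, 939.5, 16630.5 and 20596 CPM from 30 h to 36 h, and col-63 alone among them met the same levels. This sum, too, hides opposite courses in the last step. From 34 h to 36 h, bli-1 went from 4764 to 635 CPM and bli-2 from 2905 to 625 CPM, whereas col-120 went from 47.7 to 1326 CPM. The protease gene try-5, a marker of male seminal fluid, stayed at or under 0.455 CPM in all 10 libraries. The part of any of these cell types in the levels of the 138 genes was not tested.

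**Figure D5:**
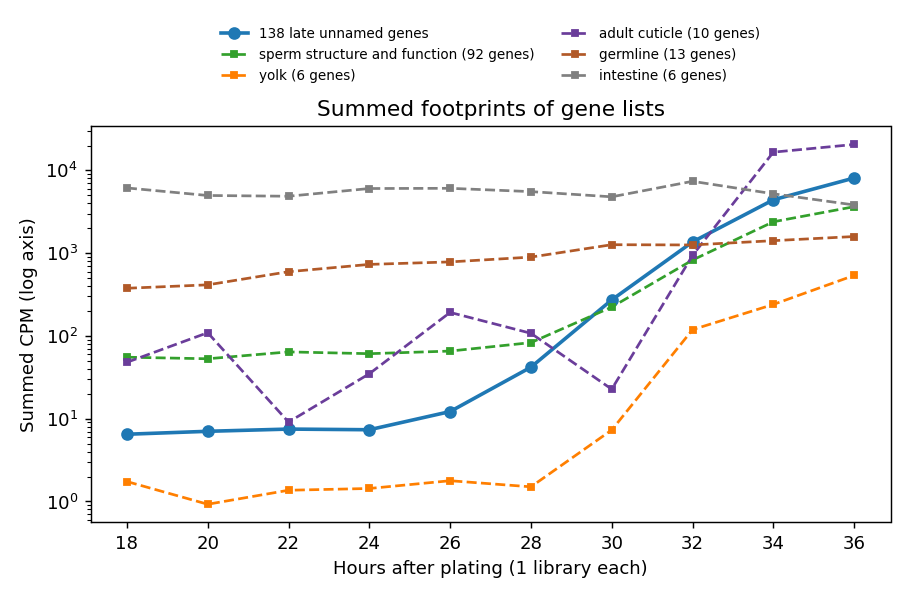
Summed CPM (log axis) of the 138 late unnamed genes and of 5 lists of named marker genes in the 10 libraries, against hours after plating. At 28 h and 36 h the unnamed genes stand at 42.0 and 8101 CPM, and the sperm list at 83.0 and 3647 CPM. The unnamed genes were chosen for low early levels, and the lists were not.

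The limits of 1 and 20 CPM cut through a continuum. Just inside the late limit were D1054.10 and ZK1053.2, both at 20.1 CPM, and Y39B6A.30 at 20.5 CPM. Just outside were Y71G12B.3, F35E2.9 and Y54G2A.15, at 19.98, 19.9 and 19.8 CPM. On the early side ZK418.2, F58D2.2 and BE10.1 were just inside, with highest early levels of 0.945, 0.902 and 0.859 CPM. C34D4.2, Y53F4B.11 and F58D5.7 were just outside at 1.07, 1.07 and 1.12 CPM, with late levels of 28.6, 80.4 and 63.5 CPM. With 10 CPM as the late limit the set holds 319 genes, of which 10 lie on X, and with 40 CPM it holds 52, of which 3 lie on X. With the 34 h library alone it holds 80 genes, of which 1 lies on X, so 58 genes belong to it through the 36 h library.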

How the data were processed

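Ribosome footprints of about 28-30 nucleotides were sequenced per the labels' protocols. Of tools, Bowtie is listed without version or role, per the submitters' processing notes. The build, annotation and counting rule are not given in the sources used, and neither coordinates nor sequences are printed. The authors deposited raw counts per gene, and log2 values that equal the counts scaled to the mean library total with 8 added (largest difference 5e-05).

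CPM was count over library total times 1000000. Names, chromosomes, gene order and coding lengths came from Ensembl release 115; 19513 of 20182 identifiers matched and 735 of those have no name. Each library is its own group (n = 1), so no test was run. Intervals are exact at 95% (Poisson, binomial or conditional binomial). Log2 ratios and the counts of genes at a minimum fold used 0.5 added counts, and ratios not given as log2 used none. The fold and rule steps were tested on simulated data. Alternatives used edgeR 4.0.16 (TMM) and DESeq2 1.42.0 size factors in R 4.3.3, and Python 3.11.15. The members, marker lists and settings were chosen with earlier results of these data known. Genes named are the 10 most abundant, the 5 largest and 5 smallest ratios of 36 h over 34 h, the 5 highest at 30 h and at 32 h, the 3 most abundant on X, those nearest the limits, and marker genes that lead a list or meet the levels. Genes named for adjacency, overlap, the 5% limit and the other X-linked genes were chosen after their values were seen. So were spch-2, the ssq genes and the further marker genes given apart from a list's sum, such as pqn-74 and try-5. Comparisons of protein and promoter sequence, planned at first, were not run.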

Additional observations from a re-analysis of the deposited data

Results flagged for a closer look

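One further identifier, WBGene00000686, meets the same levels but did not match the annotation used here and so has no name in it. It was left out of the 138 genes. It stood at or under 0.558 CPM through 28 h and then at 2.09, 90.9, 2191 and 3442 CPM from 30 h to 36 h, more than any of the 138 genes. It is given because its signal lies outside the comparisons above.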

How the results depend on the processing

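No paired analysis was possible because each time has 1 library. Median-ratio or TMM scaling gave 185 and 180 genes that meet the levels, all 138 among them, and neither changed another count by over 1.5 times. Median-ratio factors gave median steps of 2.34 and 2.39 log2 into 30 h and 32 h, in the order that TMM gave and against that by library totals. Both this and the sum without pqn-74 are later additions, chosen with the values known. The deposited log2 values gave the same 138. Late limits of 10 and 40 CPM gave 319 and 52 genes (10 and 3 on X), and leaving out the 36 h library gave 80 (1 on X). Genes at least 2-fold higher at 36 h than at 34 h numbered 69 at 1.5-fold and 11 at 4-fold, against 27. With an onset level of 2 CPM, 55, 71 and 6 genes began at 30 h, 32 h and 36 h, against 98, 29 and 3. At 0.5 CPM, 8 began at 32 h and 1 at 36 h. Leaving out the 34 genes that overlap another gene, a choice made after the data had been seen, left 19 that began at 32 h. Over all clone-named genes, 15.5% lie on X and the median length is 271 residues, against 12.9% and 340 residues over those with at least 20 CPM in some library. Alternatives that compare protein or promoter sequence were not run, since no sequence table was used here. Depth limits the early levels: 1 count is 0.0297 to 0.0598 CPM.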

Other observations

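Lists of other tissue markers, taken as sums, followed other courses than the 138 genes. The 11 vulva and uterus genes together stood at 115, 106, 85.7 and 69.2 CPM from 30 h to 36 h, after 85.0 to 122 CPM. The 11 gonad sheath and spermatheca genes, with the muscle troponin gene mup-2 as the most abundant, stood at 4102, 3455, 3068 and 3187 CPM. Most of this sum came from mup-2, unc-27 and fln-1, at 1337, 1114 and 627 CPM at 36 h, so it hides the other members. Among those, inx-8 had 0.514 to 7.69 CPM through 28 h and 17.7 CPM at 36 h. By contrast, ipp-5 had 34.7 CPM at 28 h and 20.1 CPM at 36 h. The 58 pharyngeal gland and cuticle genes had 1331 to 4561 CPM through 28 h and then 3164, 1090 (at 32 h), 1451 and 2420 CPM from 30 h to 36 h. The 8 genes of the male tail and seminal fluid list that were found, led by the cuticle gene ram-2, had 78.2 to 6335 CPM through 28 h and then 4267, 336, 836 and 3737 CPM. At 28 h and 36 h, ram-2 alone had 6301 and 3710 CPM, so this sum hides the other members. The 6 intestine genes had 4800, 7389, 5221 and 3826 CPM, and the 7 neuron genes 346, 269.9, 201 and 198 CPM. None of the genes in these 6 lists met the levels that chose the 138.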
